A study of Mus musculus with 2 samples.

Results

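The distal Mirg cluster is a run of microRNA (miRNA) hairpins in the imprinted Dlk1-Dio3 region of mouse chromosome 12. Its members were taken by position: every gene row of the count tables that the annotation places on the plus strand between Mir379 and Mir3072, the last row of the set interval, which lies 4082 bp past Mir410. This rule gave 34 of the 1973 gene rows, and it used no measured value. The series holds 1 group of 2 small RNA libraries, from hearts of B6NCrl mouse embryos, with no engineered allele or treatment named, at embryonic day 14.5, numbered as biological replicates 1 and 2. Replicate 1 was collected on 15 July and replicate 2 on 17 July. The labels call each sample a single heart and, in another entry, pooled male and female tissue, and both libraries carry the same donor entry. Whether the libraries are separate animals is therefore not settled, and the spread between them may be partly technical. Nothing was compared between conditions, so levels are given as counts scaled to a total of 1000000 gene reads (CPM) for each library, with the mean and SD of 2 libraries, and no test was run. In whole tissue, fewer cells holding a miRNA and less miRNA per cell cannot be told apart.

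Mammalian miRNAs are cut from hairpins in a longer transcript, and each hairpin can give a mature form from its 5′ arm and another from its 3′ arm. Bases 2 to 8 of the mature form, the seed, pair with target messenger RNAs, so forms with the same seed can share targets. The Dlk1-Dio3 region is imprinted: its protein-coding genes are read from the chromosome inherited from the father, and its long noncoding RNAs and miRNAs from the chromosome inherited from the mother. Mirg is a noncoding gene of the distal part that hosts some of its miRNAs, and the distal miRNAs are best known from the embryo, the placenta and the brain.

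The mature forms below are mainly those of the most abundant members and of the members that share a seed with each other. The counts are per hairpin, and the forms show which members could act on the same targets. The sequences are RefSeq's for build GRCm38.p6, 5′ to 3′, with the seed in capitals. RefSeq's table held 61 mature forms for 33 of the 34 members. It held only the 5p form of Mir487b, Mir376c and Mir539, and only the 3p form of Mir485. For several members the form of a single arm is shown, and counts per hairpin do not tell which arm is more abundant. The first set shares seeds among Mir379, Mir1193 and Mir411.

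miR-379-5p: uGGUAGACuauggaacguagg
miR-1193-5p: uGGUAGACcggugacguaca
miR-411-5p: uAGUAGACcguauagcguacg
miR-379-3p: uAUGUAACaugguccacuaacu
miR-411-3p: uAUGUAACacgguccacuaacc

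The 5p forms of Mir379 and Mir1193 carried 1 seed, and the 3p forms of Mir379 and Mir411 carried another. The other seeds found in more than 1 member join Mir494 with Mir410, Mir1197 with Mir758, and Mir453 with Mir496a.

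miR-494-5p: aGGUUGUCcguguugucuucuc
miR-410-5p: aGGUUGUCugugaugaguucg
miR-1197-5p: cGGUUGACcaugguguguacg
miR-758-5p: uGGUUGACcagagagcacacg
miR-453: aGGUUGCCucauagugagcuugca
miR-496a-5p: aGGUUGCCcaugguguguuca

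In all, the 61 forms held 56 different seeds, and 10 forms shared theirs with another member. A further 10 had a seed that is also found in a miRNA outside the cluster, among them miR-329-3p with Mir362 and miR-1193-3p with Mir370. Neither count includes miR-376c-5p, which shares its seed with miR-376b-5p, a form of a hairpin in the interval that has no row. Of the 61 seeds, 13 began with GGU, 12 of them in forms named as 5p arms, against 41 of 1679 mature forms in the whole RefSeq table (21.3% against 2.44%, a feature noticed after the sequences were seen). Both Mir487b, the most abundant member by mean, and Mir379 are in this set through their 5p forms.

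The next set shows the close copies and the other abundant members. Mir376b, shown beside Mir376c, has no row in the counts and is not a member.

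miR-376c-5p: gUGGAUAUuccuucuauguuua
miR-376b-5p: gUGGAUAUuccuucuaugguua
miR-300-3p: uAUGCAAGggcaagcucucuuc
miR-381-3p: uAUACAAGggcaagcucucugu
miR-487b-5p: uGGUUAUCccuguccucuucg
miR-541-5p: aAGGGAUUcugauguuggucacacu
miR-369-3p: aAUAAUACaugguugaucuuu
miR-382-5p: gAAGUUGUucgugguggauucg
miR-154-5p: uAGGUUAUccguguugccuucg
miR-134-5p: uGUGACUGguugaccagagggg
miR-329-3p: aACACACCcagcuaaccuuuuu

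Reads that map to several places are outside the gene counts, so shared sequence bears on each level. Hairpins of 4 members hold a stretch of at least 20 bases found in another annotated hairpin elsewhere: 21 bases join Mir411 and Mir758, 31 bases join Mir376c and Mir376b, and 20 bases join Mir487b and Mir376b. The mature forms were more distinct than the hairpins. None of the 61 lay whole in another annotated hairpin, and the longest run found there was 18 bases, for miR-376c-5p in Mir376b. The 3p arms of Mir487b and Mir376c were not among the 61, so they were not checked. Mir300 and Mir381 shared 16 bases of their 3p forms but differed within the seed. These counts hold for annotated hairpins only, because a search of the whole genome was not made.

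Summed over members, the cluster held 19714 CPM (replicate 1) and 23386 CPM (replicate 2), a mean of 21550 ± 2596 CPM (SD, n = 2). This was 2.16% ± 0.260 of the reads assigned to miRNA genes. Without the 4 members whose hairpin shares 20 bases with another (Mir411, Mir758, Mir376c and Mir487b), the sum was 12240 CPM. The libraries held 4327424 and 3839984 such reads, on the strand of each gene, and the cluster took 85311 and 89802 of them. At least 10 counts in each library were found for 29 of 34 members, against 17.1% of all 1973 rows. Levels above 100 CPM in each library were found for 15 of 34 members, against 8.26% of all rows. Most members of the cluster were thus measurable in these hearts, where most rows of the table were not.

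Levels among the measurable members covered a 523-fold range of means, from Mir487b to Mir758, although all 34 hairpins lie within 38.9 kb. By mean level, 7 members lay at 1000 CPM or more, 8 between 100 and 1000, 13 between 10 and 100, and 6 below 10. The 5 most abundant members held 71.8% ± 0.867 of the cluster's counts and the 10 most abundant held 91.7% ± 0.0440. The median over the 29 measurable members was 157 ± 20.6 CPM, and over all 337 measurable genes of the table it was 102 ± 2.64 CPM.

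Mir487b (chromosome 12, 109727333 to 109727414, mm10), a miRNA studied in the growth of blood vessels, had 20914 counts in replicate 1 and 18535 in replicate 2, or 4833 and 4827 CPM. Mir411 (109710175 to 109710256) had 16339 and 19245 counts, or 3776 and 5012 CPM. The order of these leading members was not the same in the 2 libraries: Mir487b stood 1.28 times above Mir411 in replicate 1 and 0.963 times its level in replicate 2. Mir379 (109709060 to 109709125), the first hairpin of the cluster, had 1920 and 2731 CPM. It lay below Mir411 by a factor of 1.97 in replicate 1 and 1.83 in replicate 2, so these neighbours, which share a 3p seed, kept their order in both libraries.

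A further tier of 4 members lay at or above 1000 CPM in both libraries. Mir541 (109742409 to 109742498) had 2001 and 2039 CPM. Mir381 (109726822 to 109726896) had 1748 and 2042 CPM. Mir369 (109743418 to 109743496), whose 3p form is known from work on AU-rich messenger RNAs, had 1540 and 1951 CPM. Mir541 lay above Mir369 with no overlap over the libraries, while Mir381 overlapped both, and Mir379 overlapped Mir541. Mir382 (109733771 to 109733846) had 1087 and 1269 CPM, below these 3 in both libraries.

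The next tier lay below 1000 CPM. Mir154 (109738433 to 109738498), a miRNA studied in fibrosis and growth of the heart, had 403 and 609 CPM. Mir134 (109734139 to 109734209), known for limiting the size of dendritic spines in neurons, had 410 and 476 CPM. Mir1193 (109715671 to 109715791) had 376 and 493 CPM. These 3 changed places between the libraries. Mir300 (109724313 to 109724391) had 272 and 368 CPM and Mir329 (109713481 to 109713577), a miRNA studied in vessel growth and in neurons, had 217 and 211. Mir300 lay below the 3 members above it and above Mir329 in both libraries. When the 29 measurable members were ranked by mean, 16 of the 28 neighbouring pairs in that order stood the same way round in both libraries, and in 10 of the 28 their ranges over the libraries did not overlap. Those 10 include the steps from Mir369 to Mir382, from Mir382 to Mir154 and from Mir1193 to Mir300.

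**Figure D1:**
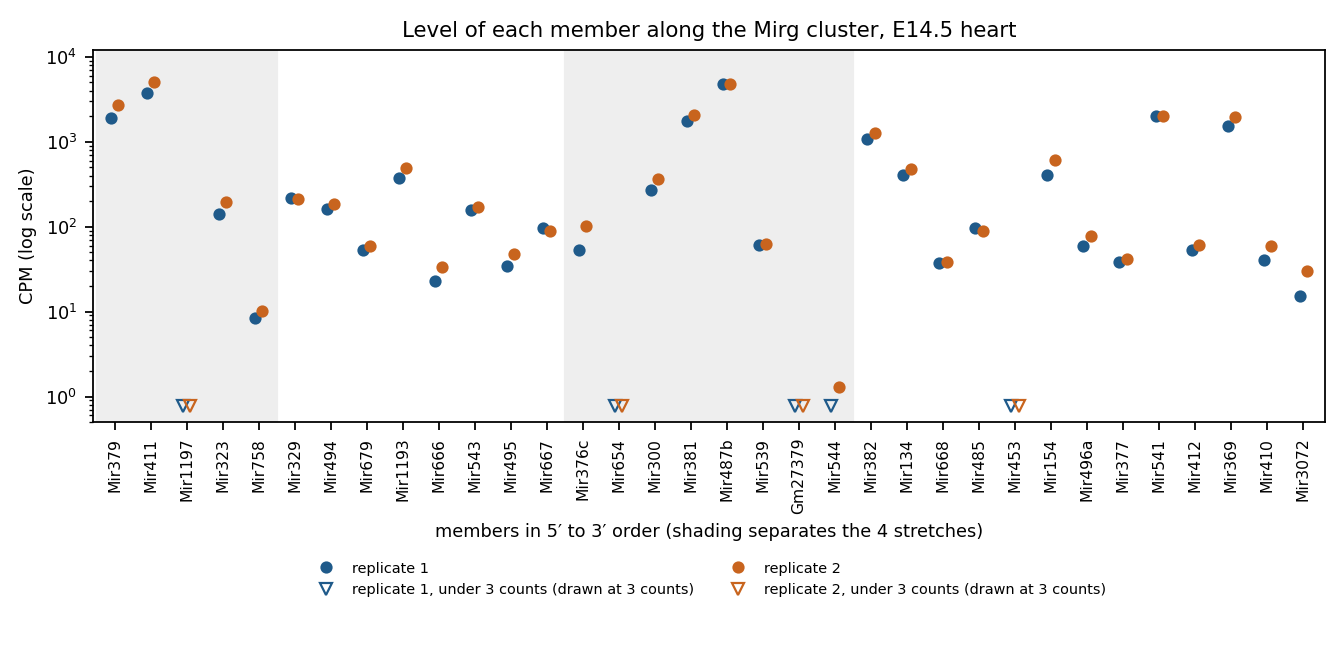
Level of each of the 34 members in CPM (log axis) against its order along the cluster, for replicate 1 (blue) and replicate 2 (orange), with shading separating the 4 stretches and open triangles for members under 3 counts, drawn at 3 counts. Members at 1000 CPM or more stand beside members below 100 CPM in 3 of the 4 stretches, and the 2 libraries follow the same profile.

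Along the cluster the abundant members were spread out and not gathered at an end. Spearman's rho of mean log2(CPM + 1) with position was -0.16 over the 29 measurable members and -0.10 over all 34, members that share their libraries and locus. The cluster was cut by choice into 4 stretches of consecutive members, which were summed. The cuts do not all follow wide gaps: the gap before Mir329 is 590 bp, where the median gap was 644 bp. The sums below depend on these cuts, and other cuts were not tried. The first, Mir379 to Mir758, held 5847 and 7948 CPM (31.8% ± 3.06 of the cluster), nearly all from Mir379 and Mir411. The second, Mir329 to Mir667, held 1119 and 1292 CPM (5.60% ± 0.106) although all 8 of its members were measurable. The third, Mir376c to Mir544, held 6967 and 7404 CPM (33.5% ± 2.60). The fourth, Mir382 to Mir3072, held 5781 and 6741 CPM (29.1% ± 0.350) from 12 measurable members of 13. The second stretch lay below each of the others in both libraries. The first and the third changed order between the libraries.

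**Figure D2:**
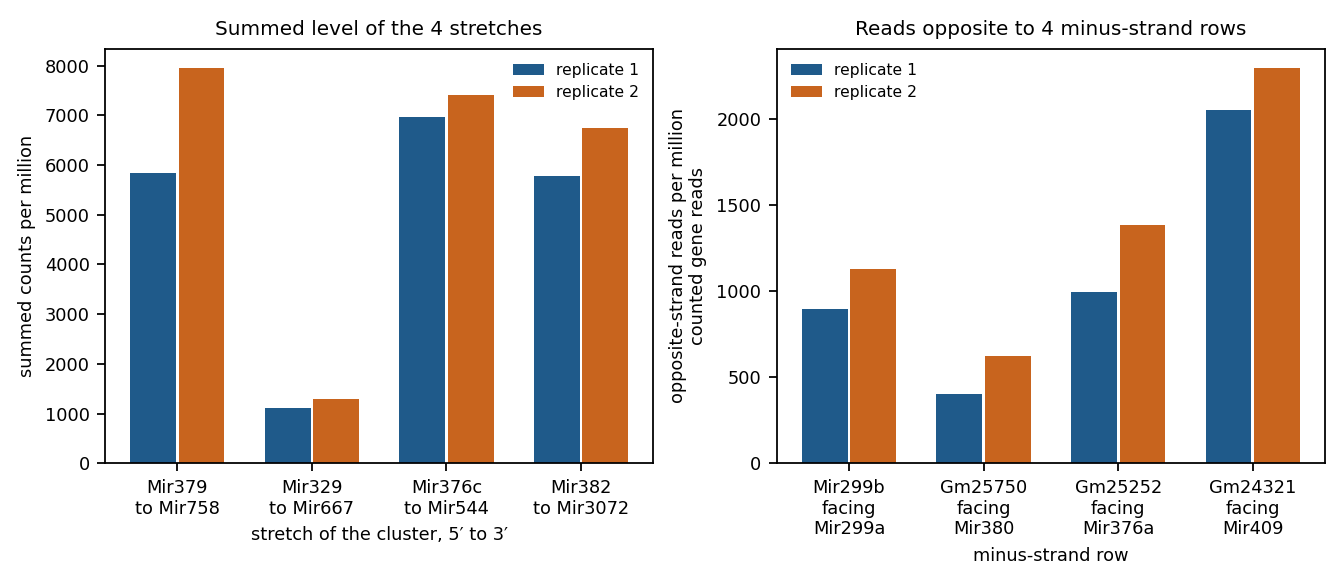
Left, summed level in CPM of the 4 stretches of the cluster in each library; right, reads (in the units of CPM) in the opposite-strand column of 4 minus-strand rows that face a plus-strand hairpin with no row of its own. The second stretch reaches 1292 CPM at most while every other stretch is at 5781 CPM or more, and the reads facing Mir409 are the highest of the 4 at right.

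Within the stretches, the highest and lowest measurable members were far apart. In the first, Mir411 led and Mir758 (109712810 to 109712890) was lowest, with 36 and 39 counts, or 8.32 and 10.2 CPM. Mir758 shares its 21-base stretch with Mir411. In the second, Mir1193 led and Mir666 (109717085 to 109717183) was lowest with 23.1 and 33.6 CPM. In the third, Mir487b led, and among measurable members Mir539 (109728129 to 109728202), which overlaps a hairpin annotated on the opposite strand, was lowest by mean, at 61.2 and 63.3 CPM. In replicate 1 Mir376c was lower, at 52.5 CPM. In the fourth, Mir541 led and Mir3072 (109747878 to 109747960) was lowest at 15.3 and 29.9 CPM. Of the measurable members not described elsewhere, Mir543 had 156 and 172 CPM. The others, Mir667, Mir679, Mir412, Mir496a, Mir377 and Mir668, lay between 37.4 and 97.5 CPM in both libraries.

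Measurable members next to each other in order often differed more than 4-fold. Of the 28 such pairs along the cluster, 16 differed by over 4-fold in both libraries. Not all of these pairs are direct neighbours. Some have a member under 10 counts between them, such as Mir453, or a hairpin with no row, such as Mir409. The median absolute difference within these pairs was 2.54 on the log2(CPM + 1) scale, against 2.43 over all pairs of measurable members. The next measurable member was thus typically no closer in level than a measurable member at any distance. Mir369 lies 49 bp past Mir412 and 218 bp before Mir410, and stood 28.9 and 32.2 times above Mir412 and 37.9 and 33.2 times above Mir410. Mir1193 lies 20 bp past Mir679 and stood 7.02 and 8.34 times above it. Mir487b and Mir539, 714 bp apart, differed by 78.9 and 76.3 times, the widest gap between measurable neighbours. Other neighbours were close, such as Mir329 and Mir494, at a ratio of 1.36 in replicate 1 and 1.13 in replicate 2.

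The GC content of the hairpins ran from 29.1% in Mir376c to 72.3% in Mir3072. Its Spearman's rho with level was -0.25 over the 29 measurable members, which is weak.

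By their place in the annotation, 21 members (Mir379 to Mir544) lie before the annotated start of Mirg (109729764 to 109749460) and 13 lie in it. The 21 upstream members summed to 13933 and 16645 CPM, and the 13 in Mirg to 5781 and 6741 CPM. Of the 13, the hairpins of Mir134, Mir485, Mir377 and Mir410 lie within an exon of at least 1 transcript and summed to 585 and 666 CPM. Mir382, Mir668, Mir412, Mir369 and Mir3072 overlap an exon in part and summed to 2733 and 3350 CPM. Mir453, Mir154, Mir496a and Mir541 are intronic and summed to 2462 and 2726 CPM. Each class held members above and below 100 CPM. The members in Mirg at 1000 CPM or more, Mir382, Mir369 and Mir541, are partly exonic or intronic. With 4 or 5 members in each class of Mirg, these values cannot tell whether the place in the host gene goes with level.

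In all, 5 members were below 10 counts in a library. Mir654 and Mir453 had 0 counts in both, so that a level of up to 3 counts, which is 0.693 CPM for replicate 1 and 0.781 CPM for replicate 2, is allowed. Gm27379 had 1 count in each library, Mir1197 had 1 and 0, and Mir544 had 1 and 5. No opposite-strand read was counted for any of the 34 members.

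Some members with a place in the vascular, cardiac and neuronal literature were grouped by role. The lists are short, were chosen with earlier results of these data known, and do not hold every member studied in each field. The vascular group, studied in the formation of new blood vessels, is Mir329, Mir487b, Mir494 and Mir495. It summed to 5245 and 5272 CPM, or 26.6% and 22.5% of the cluster, and Mir487b made up most of it. Mir494 had 160 and 186 CPM and Mir495 (109718754 to 109718816) had 34.9 and 47.7.

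The cardiac group as listed had the lowest sum of the 3 groups. Mir410 and Mir495, studied as promoters of heart muscle cell division, Mir539, studied in the mitochondria of heart muscle cells, and Mir154 together held 540 and 779 CPM, or 2.74% and 3.33% of the cluster. Mir154 gave most of this sum, and Mir410 (109743715 to 109743795) had 40.7 and 58.9 CPM. The neuronal group, Mir134, Mir485 and Mir379, held 2427 and 3296 CPM, mostly Mir379. Mir485 (109734902 to 109734974), known from work on synapses, had 96.8 and 88.5 CPM. All 11 entries of the 3 groups, with Mir495 counted in 2 of them, were measurable.

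The tissue label was checked against miRNAs of heart muscle. Mir208a, Mir208b and Mir499, which lie in myosin heavy chain genes, summed to 75752 and 79354 CPM, so the cluster stood at 0.260 and 0.295 times their level. A list of neural miRNAs, given because the cluster is also a brain cluster, summed to 325 and 366 CPM. Of its 15 members with a row, 9 had at least 10 counts in each library, and Mir124a-1, Mir124a-2, Mir124a-3, Mir9-2 and Mir9-3 had 0 counts in both. Several of the neural hairpins have near-identical copies, so reads mapping to several places limit this sum. The cluster lay 60.6 and 64.0 times above the neural list.

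The proximal part of the Dlk1-Dio3 region, with 19 rows on the same strand upstream of Mir379, was used for comparison. It summed to 9409 and 11373 CPM. The distal cluster stood 2.10 times above it in replicate 1 and 2.06 times in replicate 2 (2.08 ± 0.0276), so the ratio of the parts moved far less between libraries than either sum. At least 10 counts in each library were found for 13 of 19 proximal rows and 29 of 34 distal members. Levels above 100 CPM in each library were found for 9 of 19 proximal rows and 15 of 34 distal members, so this trait is not particular to the distal cluster. The median over measurable rows was 252 ± 27.4 CPM in the proximal part and 157 ± 20.6 CPM in the distal cluster. Without the rows of either part whose hairpin shares 20 bases with another, the ratio was 1.18. This removal was uneven. The distal cluster lost Mir487b and Mir411, its top 2 members, with 42.9% ± 1.13 of its counts, besides Mir758 and Mir376c. The proximal part lost Mir3070a, at 1.39 and 2.60 CPM, and Mir1906-1 and Mir3070b, both at 0.

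The libraries were then set against each other, which compares these 2 libraries and not conditions. The cluster sum was 1.19 times higher in replicate 2, with a 95% counting interval of 1.18 to 1.20 (exact conditional binomial). Of the 29 measurable members, 12 were at least 1.3-fold higher in replicate 2, against 20.2% of the 337 measurable genes, and 0 were at least 1.3-fold lower, against 7.72%. Counting intervals lay wholly above 1 for 17 members, against 32.6% of genes, and wholly below 1 for 0, against 19.6%. The median log2 ratio was 0.22 over members and 0.08 over all 337 genes. In the proximal part, 2 of 13 rows were at least 1.3-fold higher in replicate 2 and 0 were as much lower, with a median log2 ratio of 0.20. Counting intervals there lay wholly above 1 for 8 of 13 rows and wholly below 1 for 1.

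Over the same libraries the heart muscle list was 1.05 times higher in replicate 2 and the neural list 1.12 times. The neural rise lay in Mir137, at 13.2 and 85.7 CPM. Without Mir137, left out after its values were seen, the list had 312 and 280 CPM, a ratio of 0.897, and of the 9 measurable neural members 3 were higher in replicate 2 and 6 lower. The part of these cell types in the cluster's ratio was not tested.

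The ratio of the cluster sum and the counts of members on each side depend on the scaling. With DESeq2's median-of-ratios factors the log2 ratio of every gene fell by 0.11, and 6 members were at least 1.3-fold higher. Every ratio is then multiplied by 0.924, which puts that of the cluster sum below its counting interval given above. With those factors the counting interval lay above 1 for 16 members, against 22.6% of genes, and below 1 for 5 (Mir329, Mir667, Mir487b, Mir485 and Mir541), against 32.9%. The distance between the members' median and that of all genes was 0.15 with CPM and 0.14 with median-of-ratios factors. These factors move every gene alike, so apart from the 1 CPM added before log2 this distance could not change. It is therefore no check of the scaling. Ratios below are of CPM.

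The members that differed most between libraries were of middle or low level. Mir376c (109722718 to 109722803), of the miR-376 group known for editing of its transcripts in brain, had 227 and 393 counts, a ratio of 1.95 (interval 1.65 to 2.31). Mir3072 had 66 and 115 counts, a ratio of 1.96 (1.44 to 2.70). Mir376c shares 31 bases with Mir376b, and Mir3072 had the fewest counts of the 17 members with an interval above 1. Among members with a mean of at least 100 CPM, the widest ratio was that of Mir154, at 1.51 (1.42 to 1.61). Mir379 followed at 1.42 (1.38 to 1.46), then Mir323 (109712508 to 109712593), with 143 and 195 CPM, at 1.37 (1.23 to 1.52).

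Mir300 had a ratio of 1.35, Mir411 of 1.33 and Mir1193 of 1.31. With median-of-ratios factors, of these 6 members Mir154 and Mir379 were still above 1.3-fold and the other 4 were not. The remaining members past 1.3-fold were Mir666, Mir495, Mir496a and Mir410, with ratios from 1.34 to 1.45. Mir487b had a ratio of 0.999 (0.979 to 1.02) and Mir541 of 1.02 (0.988 to 1.05), which are 0.923 and 0.942 with median-of-ratios factors, a scaling that moves every gene alike. With 1 pair of libraries the spread of a ratio between samples was not measured, so these intervals cover counting error alone.

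**Figure D3:**
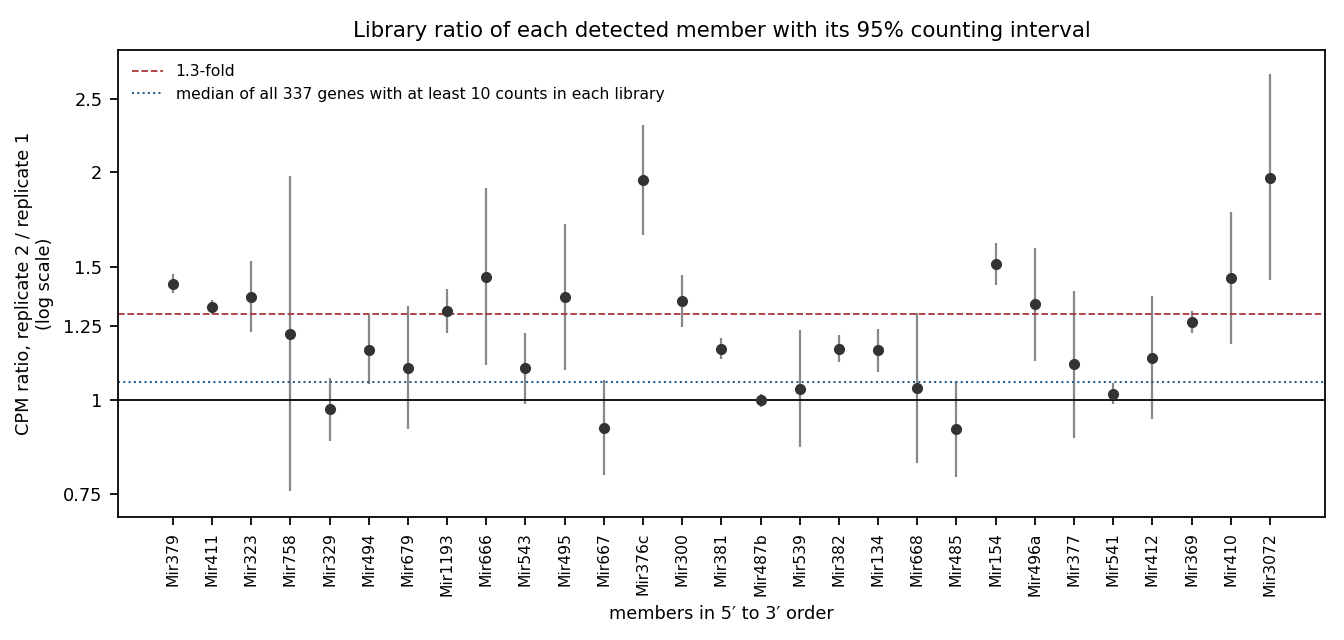
Ratio of CPM in replicate 2 to replicate 1 (log axis) for the 29 measurable members in order along the cluster, with 95% counting intervals as bars, a dashed line at 1.3-fold and a dotted line at the median of all 337 measurable genes. In all, 17 intervals lie above 1 and 0 below, while Mir487b and Mir541 lie near 1, their counting intervals including it.

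The ratio showed no trend with position, with a Spearman's rho of -0.02 over the 29 members, and little with level, with a rho of -0.12. By stretch, the first was 1.36 times higher in replicate 2, the second 1.15, the third 1.06 and the fourth 1.17. The third is the stretch of Mir487b. Among the proximal rows, Mir431 and Mir341 were the 2 past 1.3-fold.

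**Figure D4:**
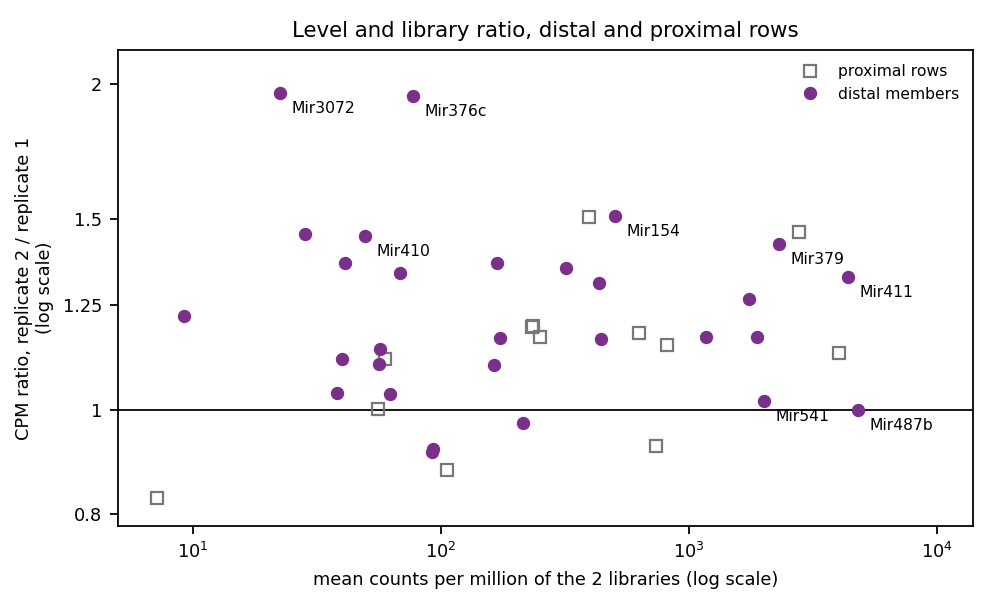
Ratio of CPM in replicate 2 to replicate 1 against mean CPM (both log axes) for the 29 measurable distal members (filled circles) and the 13 measurable proximal rows (open squares). Both sets span 1 on the vertical axis, and Mir3072 and Mir376c, each near 2-fold, lie below 100 CPM.

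Of the 39 hairpins annotated on this strand within the interval, 5 have no row: Mir299a, Mir380, Mir376b, Mir376a and Mir409. Their levels are not in any sum above. Rows on the minus strand face 4 of them, and the opposite-strand column of those rows held reads. These amounted to 22.0% of the members' reads in replicate 1 and 23.2% in replicate 2, so the cluster's sum and the order of its members describe its rows and not all of its hairpins.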

How the data were processed

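The authors deposited 1 table of read counts per library, on build mm10 with GENCODE M4 names, per the deposited descriptions. An aligner or a counting program is named neither in the labels nor in the headers (not given in the sources used here). Each table holds whole-number counts for both strands together and for each strand, over 1973 gene rows and 4 lines for reads in no gene, which were left out of totals. Reads mapping to several places (30.6% and 30.1% of all reads) are in those lines. The strand column with the larger total was used, and CPM was computed from its total.

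Positions came from GENCODE M21, on the same assembly, which named 1894 of the 1973 rows. Members were chosen by position, and the members, lists and tests were chosen with earlier results of these data known. With 1 group no test was run. Measurable means at least 10 counts in each library, and 1 CPM was added before taking log2. Ratios carry exact conditional binomial (Clopper-Pearson) 95% intervals, whose calculation was checked on simulated counts that hold counting error alone. Intervals and the floor of 3 counts cover counting error only, since reads carry no molecular identifiers. Values per library were given for the 12 most abundant members, the highest and lowest of each stretch, members past 1.3-fold with a mean of at least 100 CPM, members under 10 counts, and the role lists. Mir376c, Mir3072, Mir412 and the pairs of neighbours were singled out after their values were seen.

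Alternatives were the unstranded column, TMM factors (edgeR 4.0.16), median-of-ratios factors (DESeq2 1.42.0, R 4.3.3), a total without the most abundant gene, other minimums and pseudocounts, members sharing no 20 bases, and each replicate left out. Added after seeing the data were the reads facing 4 minus-strand rows, and the cluster without Mir3072. The remaining calculations ran in Python 3.11.15 with pandas 2.3.3, numpy 2.4.6, scipy 1.17.1 and matplotlib 3.10.9.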

Additional observations from a re-analysis of the deposited data

Results flagged for a closer look

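Reads lay in the opposite-strand column of 4 minus-strand rows, data outside the cluster's counts. Each row faces a plus-strand hairpin that has no row, so these reads lie on the strand of that hairpin. Opposite to Mir299b, which faces Mir299a, there were 3869 reads in replicate 1 and 4336 in replicate 2, while Mir299b itself had 2 in each library on its own strand. Opposite to Gm25750, which faces Mir380, there were 1743 and 2399 reads. Opposite to Gm25252, which faces Mir376a, there were 4297 and 5317. Opposite to Gm24321, which faces Mir409, there were 8883 and 8819. The last 3 rows had 0 reads on their own strand in both libraries.

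Scaled to the same totals as the members (CPM), the reads on the Mir409 strand came to 2053 and 2297, within the range of Mir379 and above Mir541 in both libraries. Those on the Mir376a strand came to 993 and 1385, those on the Mir299a strand to 894 and 1129, and those on the Mir380 strand to 403 and 625. The ratios of replicate 2 to replicate 1 ran from 1.12 to 1.55, where 59.6% of the 337 measurable genes were higher in replicate 2 by any amount and their median ratio was 1.06. Together the 4 held 8.76% and 11.3% of all opposite-strand gene reads of the tables. Whether each read belongs to the facing hairpin was not tested.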

How the results depend on the processing

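The 8 summary values were recomputed in 67 combinations of value and setting, of which 56 stayed within the spread between libraries or, for counts, within 1.5 times. Some of the 56 could not have moved. With 2 libraries, leaving out 1 always keeps a mean within their spread, and the members' own opposite-strand counts were 0. The cluster sum was 24467 CPM with a total that leaves out the most abundant gene, 12240 CPM without the 4 members that share 20 bases with another hairpin, and 26309 CPM with the reads facing 4 minus-strand rows added. With those reads the 5 most abundant members held 59.6% of the counts, the ratio to the proximal part was 2.55 and the median log2 ratio was 0.26. Without the sharing members the ratio to the proximal part was 1.18, a fall that lies almost wholly in the distal sum. The median log2 ratio of replicate 2 to replicate 1 was 0.16 with TMM, 0.11 with median-of-ratios factors and 0.21 with the total that leaves out the most abundant gene, against 0.01, -0.03 and 0.06 over all genes. Members at least 1.3-fold higher in replicate 2 numbered 8 with TMM, against 15.4% of all genes, and 6 with median-of-ratios factors, against 14.5%. Members at least 1.3-fold lower numbered 0 under every setting tried. The setting without a count minimum still took only 31 members and left out Mir1197, with 1 and 0 counts. Leaving out a replicate gave a cluster sum of 19714 to 23386 CPM. No paired analysis was possible because the series holds 1 group. Members under 10 counts, and the low members Mir758 and Mir3072, are limited by depth, and the libraries differ by collection day, whose part was not tested.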
